A study of Homo sapiens with 4 samples.

Results

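Of the genes of the Notch pathway, 8 were examined in OMM2.3 cells, a human uveal melanoma line: the receptors NOTCH1, NOTCH2 and NOTCH3, the ligands JAG1 and JAG2, the nuclear effectors RBPJ and MAML1, and the target gene HES1. They were selected by name from the gene table and on having a peak of N6-methyladenosine (m6A, a methyl mark on adenosines inside messenger RNA) in the list of each condition. Of the 8 genes, 7 had such peaks in both lists, as did 8409 of the 14416 genes of the table. NOTCH3 was in the gene table but had no peak in either list, so it is described for its level alone. Since peak presence in both lists chose the members, it is not a finding about them.

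All libraries carried the wild-type label for genotype. Cells had 24 h of treatment, with meclofenamic acid (called MA) in one condition and with the solvent DMSO in the control (called NC). Meclofenamic acid is a cyclooxygenase inhibitor used against inflammation, and it is also known as an inhibitor of FTO, an enzyme that removes m6A. For each condition, 1 input library of fragmented poly(A) RNA gave the transcript levels and 1 immunoprecipitated (RIP) library, enriched on beads that bind m6A, gave the peaks. With 1 library of each kind per condition there was no replicate, no test could be made, and each difference describes these libraries. The line stands for 1 tumour cell line only, and the labels name no separate cultures.

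Notch receptors sit in the cell membrane and bind ligands of the Jagged and Delta-like families on neighbouring cells. Binding lets an ADAM protease and then gamma-secretase cut the receptor, and its inner part moves to the nucleus. There it joins the DNA-binding protein RBPJ and a Mastermind-like protein such as MAML1 to switch on genes of the HES and HEY families, repressors that carry the signal further. In the melanocyte lineage the pathway is known for maintaining melanocyte stem cells and melanoblasts.

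In the inputs, NOTCH1, NOTCH2 and MAML1 differed little between MA and NC, RBPJ was higher in MA, and JAG1, JAG2 and HES1 were lower in MA. Levels are FPKM, reads or fragments scaled to transcript length and library size. The log2 difference is that of (FPKM + 1), MA over NC, and a gene was counted as apart at 2-fold or more on this scale. Of the 7 members at 1 FPKM or more, 1 (RBPJ) was higher by 2-fold or more and 1 (JAG2) was lower, which is 14.3% in each direction. Among all 10564 genes at 1 FPKM or more, 10.3% were higher and 2.98% lower by as much. With 7 genes, a single gene makes up each of the members' shares. The median difference was 0.04 over the 7 members and 0.11 over all tested genes. With that median set to 0, the members' median was -0.07, RBPJ was at 1.22 and JAG2 at -1.19, and over all genes 756 were higher and 439 lower in place of 1087 and 315.

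NOTCH1, the receptor whose peaks are described 1 by 1 further on, was at 5.31 FPKM in NC and 5.49 in MA, the lowest level of the 7 genes in both inputs. Its ratio without a pseudocount was 1.03 (exact 95% interval 0.972 to 1.10), from at least 1872 and 2177 reads. This interval and those that follow cover counting error only, and they say nothing of the variation between cultures. The log2 difference of NOTCH1 was 0.04, and -0.07 when the median gene was set to 0, so its direction depended on the scaling. NOTCH2, the closest relative of NOTCH1 among the members, was at 13.04 FPKM in NC and 14.8 in MA, a ratio of 1.13 (1.09 to 1.17). NOTCH2 shares sequence with the NOTCH2NL genes, so some of its reads are uncertain. NOTCH3, a receptor known from smooth muscle of vessels, was at 0.0251 FPKM in NC and 0.0195 in MA, from at least 8 and 7 reads. At this depth no difference of NOTCH3 could be detected, its ratio being 0.779 with an interval of 0.240 to 2.46.

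Both Jagged ligands were lower in MA, JAG2 by more than JAG1. JAG2 was at 18.3 FPKM in NC and 8.14 in MA, a log2 difference of -1.08. Its level in NC was 2.24 times that in MA (2.12 to 2.37), and 2.38% of all tested genes had a lower difference. JAG1 was at 15.8 FPKM in NC and 12.1 in MA, 1.31 times as high in NC (1.24 to 1.37), with a log2 difference of -0.36. In NC the level of JAG2 was above that of JAG1, and in MA it was below, beyond counting error in both inputs.

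RBPJ, the DNA-binding protein on which all 4 receptors converge, was at 9.57 FPKM in NC and 25.7 in MA. It was 2.68 times as high in MA (2.56 to 2.81), with a log2 difference of 1.33, above 96.7% of tested genes. MAML1, the coactivator, was at 9.69 FPKM in NC and 11.0 in MA, a ratio of 1.13 (1.04 to 1.23). The pair thus stood at levels within counting error of each other in NC and well apart in MA. RBPJ has processed pseudogenes and its annotated span overlaps several noncoding RNA genes, so reads could be split or added where the counting did not use strand.

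HES1, the repressor most often read as a target of the pathway, was at 23.4 FPKM in NC, the highest of the members there, and at 15.6 in MA. Its level in NC was 1.50 times that in MA (1.38 to 1.63), and its log2 difference of -0.56 stayed under 2-fold. In order of level, NC ran HES1, JAG2, JAG1, NOTCH2, MAML1, RBPJ and NOTCH1, and MAML1 and RBPJ were not apart by more than counting error. In MA the order was RBPJ, HES1, NOTCH2, JAG1, MAML1, JAG2 and NOTCH1, with HES1 and NOTCH2 within counting error of each other.

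**Figure D1:**
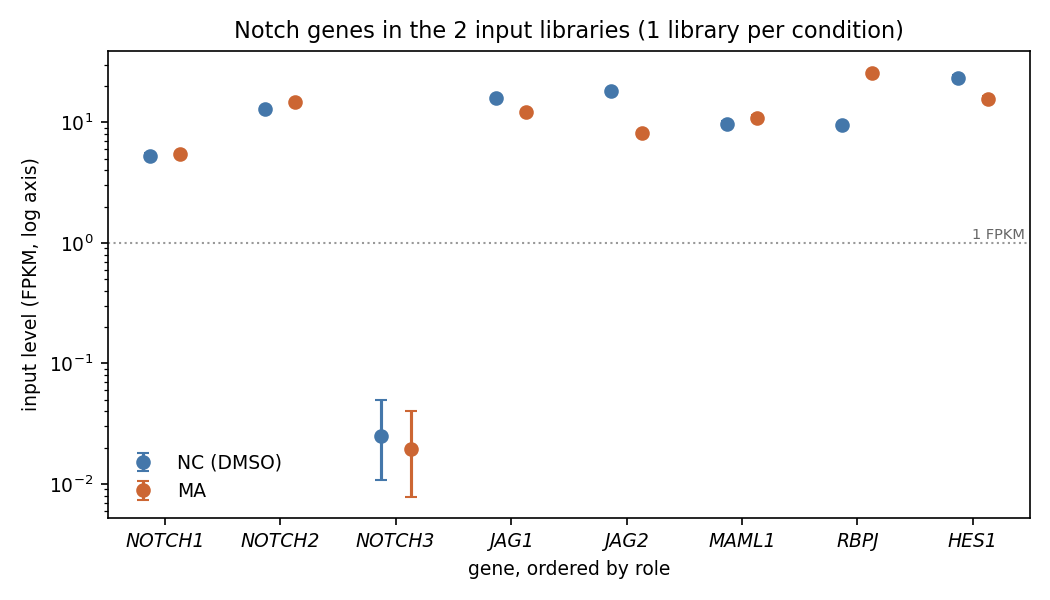
Input level (FPKM, log axis) of the 8 Notch genes in NC and MA, 1 library each, with exact 95% Poisson intervals of the reads (counting error only, mostly smaller than the points). RBPJ goes from 9.57 in NC to 25.7 in MA, JAG2 from 18.3 to 8.14, and NOTCH3 lies near 0.02 in both.

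Higher genes were more frequent among genes with a long recovered length. In the longest of 3 equal groups by the transcript length recovered from the FPKM values, 13.01% of genes were higher in MA by 2-fold or more and 2.24% were lower, against 6.65% and 3.72% in the shortest group. RBPJ (6863 bases) and JAG2 (5773 bases) were both in the longest group, and HES1 (1575 bases) in the shortest. These lengths are the smallest that fit the values, so some genes may be longer and belong in another group. The part of length in these differences was not tested.

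The promoter sequences of RBPJ, the member with the largest difference, and of the target HES1 are shown, because RBPJ binds a known motif at the HES1 promoter. All 8 genes had entries in the RefSeq promoter table (GRCh38.p14), 12 start sites in all, 5 of them of RBPJ. The 250 bases before each start site were searched on both strands for the 7 bases GTGGGAA (reverse TTCCCAC), for its 6-base core TGGGAA, which overlaps it, and for the N box CACNAG, the motif that HES proteins bind. Of the 12 windows, 2 held the 7-base motif, 1 of HES1 and 1 of RBPJ. It was in 5.43% of all 35116 promoter windows. Both sequences run 5′ to 3′ on the plus strand, with each match of the motif or its core in capitals.
HES1, chr3:194135898-194136147: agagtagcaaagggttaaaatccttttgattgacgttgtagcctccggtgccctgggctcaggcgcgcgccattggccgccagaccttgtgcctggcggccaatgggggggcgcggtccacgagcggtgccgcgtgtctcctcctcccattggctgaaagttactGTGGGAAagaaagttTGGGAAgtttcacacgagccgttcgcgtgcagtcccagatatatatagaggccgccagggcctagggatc
RBPJ, chr4:26319496-26319745: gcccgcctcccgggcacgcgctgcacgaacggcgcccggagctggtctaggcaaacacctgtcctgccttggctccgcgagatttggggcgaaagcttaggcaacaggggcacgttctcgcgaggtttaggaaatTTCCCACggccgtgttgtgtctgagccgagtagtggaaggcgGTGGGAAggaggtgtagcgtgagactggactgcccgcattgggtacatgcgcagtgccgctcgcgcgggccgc

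In HES1 the 7-base motif began 85 bases before the start site and a second core match began 70 bases before it, both on the coding strand. The RBPJ window held 2 matches of the 7-base motif in opposite directions, 115 and 73 bases before the start site. A window with 2 or more core matches was found for 2.90% of all promoter windows. N boxes numbered 3 in the HES1 window, and 32.0% of all windows had at least 1. These are matches of letters, not measured binding sites. Their part in the input differences of HES1 and RBPJ was not tested.

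The pathway list held 57 further genes in 8 roles, and with the members 59 of 65 symbols were in the gene table and 50 reached 1 FPKM. Of the 50, 6 were higher in MA by 2-fold or more (12.0%) and 5 lower (10.0%), against 10.3% and 2.98% of all tested genes. The median log2 difference was -0.02, against 0.11 for all tested genes. The symbols DLL4, DLK1, HES5, HEYL, DTX1 and NEURL1 were not found in the gene table. Among the nuclear effectors, MAML2, another Mastermind-like coactivator, was at 1.18 FPKM in NC and 4.58 in MA (log2 difference 1.36). SNW1, a coactivator that binds the RBPJ complex, was at 37.7 and 71.2 FPKM (0.90), while MAML3 was at 4.10 in both (0.00). The acetyltransferases EP300 (-0.09) and CREBBP (0.09) differed little.

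All 3 tested ligands were below 0, under each scaling tried. Of all 10564 tested genes, 4573 were below 0 before any rescaling, and with 3 genes nothing is read from this count. DLL3, a Delta-like ligand known mainly as an inhibitor of Notch in its own cell, was at 18.2 FPKM in NC and 5.02 in MA (-1.67) and had no peak in either list. DLL1 was under 1 FPKM in both inputs. Of the 4 tested targets none reached 2-fold, where 10.3% of all tested genes were higher and 2.98% lower by as much. HES4 was at 79.2 FPKM in NC and 42.2 in MA (-0.89), HES1 was at -0.56, and HEY1 (0.15) and HEY2 (0.05) lay close to 0. With the median gene set to 0, HEY2 and CREBBP were below 0. NRARP, a feedback target, was under 1 FPKM in both inputs.

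Corepressors, which hold RBPJ targets off without a signal, had members on both sides. HDAC1, a histone deacetylase, was at 56.1 FPKM in NC and 27.0 in MA (-1.03) and CIR1, which bridges RBPJ and histone deacetylases, at 6.40 and 16.7 (1.25). NCOR1, a scaffold that recruits histone deacetylases, was at 8.40 FPKM in NC and 16.3 in MA (0.88). Among the proteases that cut the receptor, ADAM17 was at 5.99 FPKM in NC and 14.5 in MA (1.15) and PSEN2, a catalytic subunit of gamma-secretase, at 15.1 and 6.67 (-1.07). ADAM10, another protease of the receptor, was nearer to 0 at 0.48. FURIN, which makes the first cut of the receptor on its way to the membrane, was at 22.8 FPKM in NC and 13.5 in MA (-0.72).

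Genes that modify or remove the receptor completed the list. None of the 5 tested glycosylation genes reached 2-fold with the pseudocount, where 10.3% of all tested genes were higher and 2.98% lower by as much. With 5 genes nothing is read from this count. LFNG, a Fringe enzyme that tunes the choice of ligand, was at 1.45 FPKM in NC and 0.521 in MA (-0.69). Without the pseudocount its level in NC was 2.78 times that in MA (2.09 to 3.72). LFNG passed the 1 FPKM minimum through NC alone, so its direction is not read further. POFUT1, which adds the fucose that Fringe enzymes extend, was at 26.1 and 20.1 FPKM (-0.36), and RFNG, another Fringe, at 21.1 and 17.0 (-0.30). Of 10 genes of endocytosis and turnover, 2 were higher in MA by 2-fold or more, where 10.3% of all tested genes were, and 0 were lower, where 2.98% were. With 10 genes these counts are near the background. The 2 were the ubiquitin ligases NEDD4 (2.30 FPKM in NC and 8.54 in MA, 1.53) and ITCH (6.31 and 14.0, 1.04). MIB1, the ligase that readies ligands for endocytosis, was at 2.78 and 6.37 (0.96). The pseudocount shrinks the differences of such low genes: without it, MIB1 was 2.29 times as high in MA (2.13 to 2.47).

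**Figure D2:**
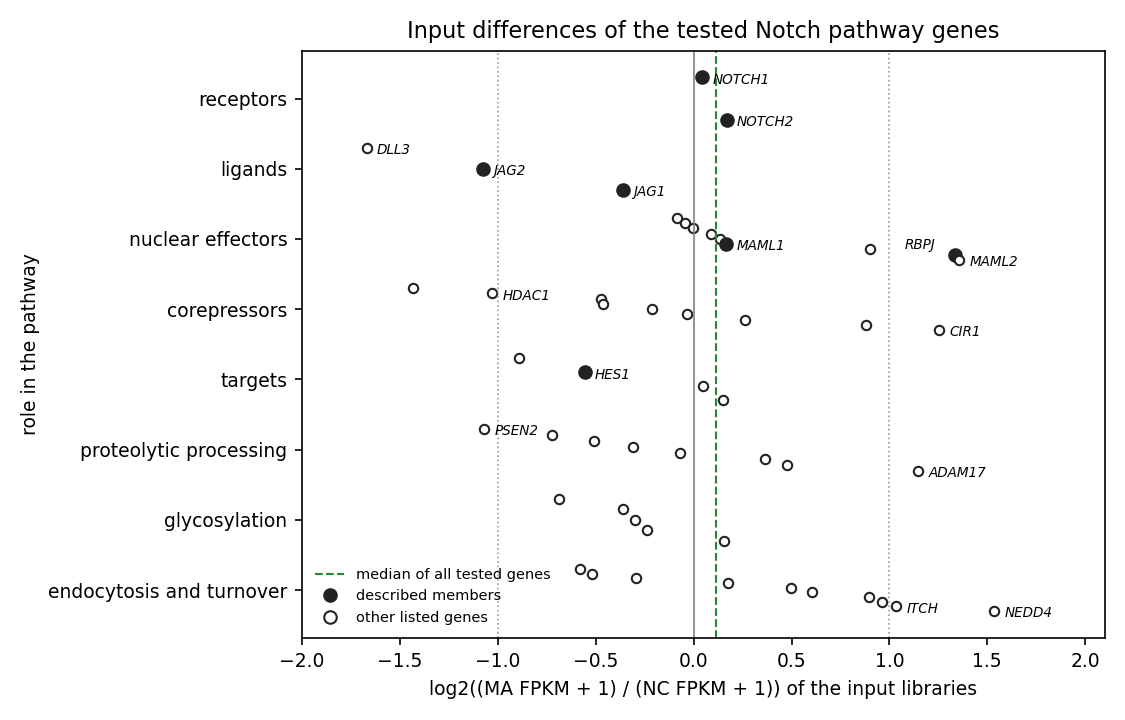
Log2 differences of (FPKM + 1), MA over NC, for the 50 tested pathway genes by role. Filled points are the described members, names mark some of the genes at 2-fold or more, dotted lines mark 2-fold and the dashed line the median of all tested genes (0.11). All 3 ligands lie left of 0, as would 4573 of all 10564 tested genes. Beyond the right dotted line lie 6 genes (12.0%) and beyond the left 5 (10.0%), against 10.3% and 2.98% of all tested genes.

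The 7 genes with peaks had 24 peaks in NC and 20 in MA, with total exonic lengths of 8848 and 9045 bases. Fold enrichments of RIP over input are the authors' values and are ranked only within their own list. The members' median fold was 3.79 in NC, where the whole list had 3.57, and 3.71 in MA, where the whole list had 3.07. Of the NC peaks, 7 were in the 3' UTR, 12 in other exon sequence, 3 at the start codon, 1 at the stop codon and 1 in the 5' UTR. The MA list had 9 in the 3' UTR, 9 in exon sequence, 1 at the stop codon, 1 in the 5' UTR and 0 at the start codon.

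A peak had a partner when it overlapped a peak of the other list by at least 1 base on the same strand. Of the NC peaks of the members, 18 of 24 (75.0%) had a partner in MA, and 73.8% of all NC regions did. In the other direction, 19 of 20 MA peaks (95%) had a partner in NC, and 79.6% of all MA regions did. Nothing is read from these shares, since peaks in both lists chose the genes. Of 20 overlapping pairs, 3 had the same start and end in both lists: a NOTCH2 3' UTR peak, the RBPJ stop codon peak and the HES1 3' UTR peak. Peak ends often differed by about 50 bases, as in the 4 other NOTCH2 pairs.

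Of the 6 NC peaks of the members without a partner, 4 lay at a start codon or in the 5' UTR, as did 26.8% of all 5749 NC peaks without one. One of the 4, in the 5' UTR of NOTCH2, is uncertain because of the NOTCH2NL copies, and those of NOTCH1 and RBPJ depend on the number of NC peaks kept. All 3 NC start codon peaks of the members, in NOTCH1, JAG1 and RBPJ, had no partner in MA, and 36.9% of all 1338 NC start codon peaks had none. These 3 peaks are a description too. All 3 were among the weaker NC peaks by the authors' p, with false discovery rates of 1.51e-03 for NOTCH1, 3.63e-04 for JAG1 and 2.19e-02 for RBPJ. A higher p was held by 6.93%, 12.1% and 1.35% of NC peaks. When the NC list was reduced to as many peaks as the MA list holds by the lowest p, only that of JAG1 was still listed. This order uses the strength of the NC peak alone, and signal below the caller's threshold in MA could not be seen.

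JAG1 (GRCh38.p13, chromosome 20, minus strand) had a 3' UTR peak in both lists and a start codon peak in NC alone. The 3' UTR peak ran from 10639381 to 10639830 in NC, with a fold of 4.76, and from 10639381 to 10639880 in MA, with a fold of 4.27. It had the lowest false discovery rate of all member peaks in each list, 7.94e-15 in NC and 7.94e-13 in MA. The start codon peak covered 10673799 to 10673999 with a fold of 3.00. JAG2 (chromosome 14) had 2 peaks in each list, all in the 3' UTR and all with a partner. The larger spanned 105142577 to 105143126 in NC (fold 4.78) and 105142527 to 105143026 in MA (fold 5.36), the latter above 86.9% of the MA list. JAG2, the member with the lowest difference in the inputs, thus had as many peaks in MA as in NC.

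RBPJ (chromosome 4, plus strand) had a stop codon peak at the same 501 bases in both lists, 26430833 to 26431333. Its fold was 4.81 in NC, above 69.3% of that list, and 4.73 in MA, above 80.4%. The start codon peak of RBPJ, 26320660 to 26320810, was in NC alone, with a fold of 3.00. The input level of RBPJ was lower in NC, and its part in the peak calls was not tested. HES1 (chromosome 3, plus strand) had 2 peaks in each list. Its 3' UTR peak, 194138142 to 194138437, was the same in both, with a fold of 4.65 in NC and 3.68 in MA. The other HES1 peak ended at 194137699 in both lists, but it began at 194136394 in NC and 197 bases nearer the 5′ end in MA, where it was annotated as 5' UTR and not as exon. Its exonic length was 296 bases in NC and 493 in MA, and its fold in NC, 1.70, was the lowest of all member peaks there.

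MAML1 (chromosome 5, plus strand) was the 1 gene with more peaks in MA, 5 against 4, and each had a partner. Its highest fold in NC, 6.22, belonged to a peak of 800 exonic bases from 179733372 to 179766069, which crosses an intron, while the MA partner of 650 bases, 179765420 to 179766069, lay within 1 exon. A broad NC peak of 850 exonic bases, 179769077 to 179774634, overlapped 2 MA peaks, 1 in exon sequence and 1 in the 3' UTR. NOTCH2 (chromosome 1, minus strand) had 7 peaks in NC, more than 97.4% of genes with a peak there, and 5 in MA. The 5 MA peaks all had a partner, and the strongest in both lists was the 3' UTR peak at 119914599 to 119915547, with a fold of 5.95 in NC and 4.45 in MA. In NC alone were an exon peak at 119920331 to 119922321 (fold 2.29) and a 5' UTR peak at 120069412 to 120069612 (fold 4.57). The NOTCH2NL genes are copies of the 5′ part of NOTCH2, so the 5' UTR peak is uncertain.

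**Figure D3:**
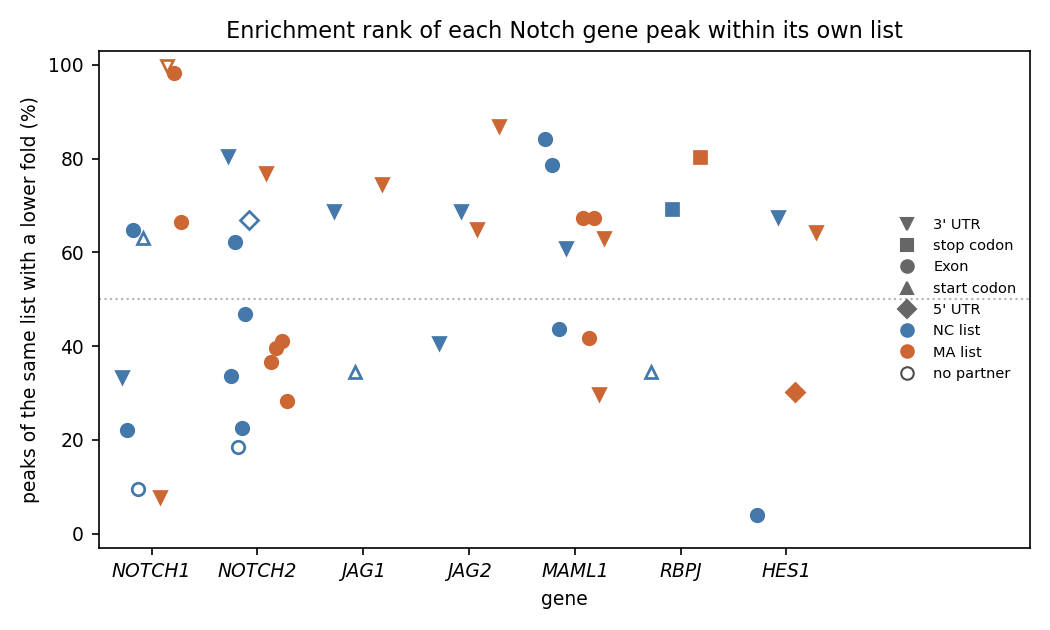
Share of peaks of the same list with a lower fold enrichment (%), for each peak of the 7 genes, NC in blue and MA in orange. Symbols give the annotated feature and open symbols have no partner. Of the 7 open symbols 6 are NC peaks, and the 2 highest points are MA peaks of NOTCH1.

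NOTCH1 lies on the minus strand of chromosome 9, so its 3' end has the lower coordinates. It had 5 peaks in NC and 4 in MA, of which 3 in each list had a partner. In NC, 3 peaks lay in 2392 bases at the 3' end, from 136495131 to 136497522, and the other 2 lay 7546 bases or more away toward the 5′ end. In MA all 4 peaks lay in a window of nearly the same place and size, 2393 bases from 136495081 to 136497473. Within that window the peaks covered 1048 exonic bases in NC and 1748 in MA.

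From the 3' end, the first peak was a short one of 150 bases in the 3' UTR in both lists, at 136495131 to 136495280 in NC and 50 bases nearer the 3' end in MA. Its fold was 2.90 in NC and 1.78 in MA, under most peaks of either list. The next was in MA alone, 300 bases of 3' UTR at 136495679 to 136495978, with a fold of 18. It was the highest fold of any member peak, and 33 of the 19929 MA peaks had a fold that high or higher. In NC, no peak of NOTCH1 lay in the 996 bases between 136495280 and 136496277.

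An exon peak of 898 bases followed in MA, 136496077 to 136496974, with a fold of 10.0, above 98.3% of the list. It contained a NC peak of 349 bases, 136496277 to 136496625, with a fold of 2.44. It also touched by 1 base the next NC peak, 136496974 to 136497522, which had the highest fold of NOTCH1 in NC, 4.44. The main partner of that NC peak was the MA peak at 136497074 to 136497473, with a fold of 3.82. The 3 MA peaks from the fold of 18 to that of 3.82 were 98 and 99 bases apart and carried 1 false discovery rate, 8.91e-06, so the rate does not rank them. Such shared p-values were common: 40.8% of NC peaks and 43.4% of MA peaks had the same p as another peak of their gene.

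High folds were mostly whole numbers, as were both of these. Of the 332 MA peaks with a fold of 10 or more, 81.0% had a whole fold, against 19.8% of all MA peaks. In NC the shares were 74.4% of 819 such peaks and 27.8% of all. The read numbers behind a fold were not used here, so its precision is unknown. The remaining NOTCH1 peaks were in NC alone: a junction peak of 150 exonic bases at 136505069 to 136505423 (fold 2.00) and the start codon peak at 136545849 to 136546048 (fold 4.33). When both lists held as many peaks, neither was listed, nor was the short 3' UTR peak of NC.

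**Figure D4:**
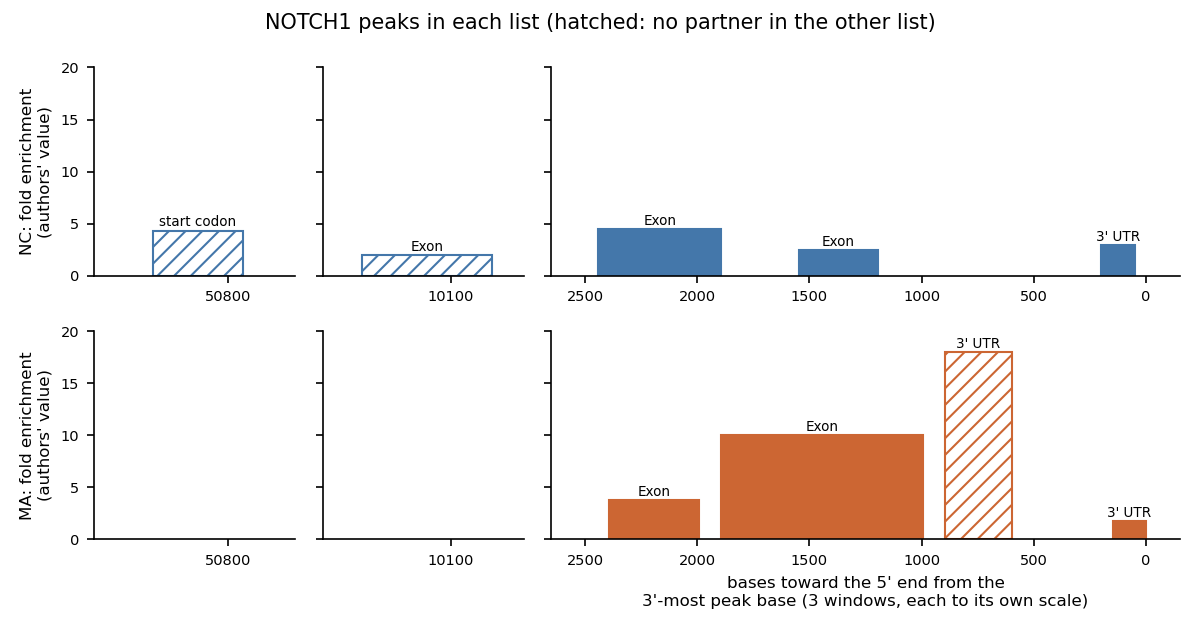
NOTCH1 peaks in the NC list (top) and the MA list (bottom), drawn 5′ to 3′ in 3 windows, each with its own scale. The horizontal axis counts bases toward the 5′ end from the 3′-most peak base, bar height is the authors' fold enrichment, ranked only within a list, and hatched bars have no partner. The bars of 18 and 10.0 in MA stand near the 3' end, and both left windows hold NC peaks only.

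The genes most like NOTCH1 in input level and peak number in both conditions, by the distance over these 4 values on log2 scales among the 8026 genes that reached 1 FPKM in either input and had peaks in both lists, were SPATA2, MOCS1 and KDM2B. Each had 5 peaks in NC and 4 in MA, as NOTCH1 did. These peak numbers and the levels that follow come from the choice and are not a finding. SPATA2 was at 5.69 FPKM in NC and 4.83 in MA, MOCS1 at 5.19 and 6.53, and KDM2B at 5.93 and 4.75. Of the other 51 pathway genes in the table, 38 had peaks in both lists, 6 in NC alone and 0 in MA alone, with 118 peaks in NC and 100 in MA. Over all genes of the table, 6.92% had peaks in NC alone and 3.94% in MA alone, and the whole lists held 22067 peaks in NC and 19929 in MA, so NC had more in the whole lists too. Those with peaks in NC alone were NOTCH4, DLK2, NRARP, APH1A, DTX4 and MIB2, and 4 of the 6 were under 1 FPKM in both inputs. MAML2 had 7 peaks in NC and 6 in MA, and MAML3 had 7 and 8.

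The totals behind the FPKM scale were 37041597 in NC and 41630895 in MA. All 8 melanocytic markers were at 1 FPKM or more, with a summed level of 7428 FPKM in NC and 3229 in MA, so the melanocytic label held in both while the markers were lower in MA. Of the fibroblast markers, 4 of 6 were in the table and only LUM reached 1 FPKM, with sums of 5.10 FPKM in NC and 12.2 in MA, and COL1A2 and COL3A1 were not listed. Of the endothelial markers 2 of 4, of the immune markers 2 of 5 and of the epithelial markers 5 of 5 were in the table, all under 1 FPKM, and each set summed to at most 0.399 FPKM in NC and 0.306 in MA. The part of these shifts in the Notch differences was not tested. In these bulk libraries, fewer cells expressing a gene and less RNA per cell cannot be told apart.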

How the data were processed

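Transcript levels are FPKM values that the authors computed for the 2 input libraries and deposited. The ratio of RIP over input (fold enrichment), the p-value with its false discovery rate, and the other columns (positions, exonic lengths) of each peak are the authors' too, per the file headers. The build was GRCh38.p13, and Trimmomatic, HISAT, HISAT2, ChIPseeker and deepTools are named with no version, per the submitters' processing notes. For the counter, the strand setting and the peak caller, the sources used here give no name.

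The ratio of a gene's 2 values gave the relative depth. Lengths equal to RefSeq spans (GRCh38.p14) then gave the totals, at which 147 genes matched against 32 at the next best. Whole reads were found for 13053 of the 13055 genes with a value above 0 in each input, and for 5.75% after the values were moved by under 0.1%. The reads and lengths are the smallest that fit. The intervals may therefore be too wide, and PCR duplicates make them too narrow. Intervals of ratios are exact binomial at 95%.

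Log2 differences used a pseudocount of 1 FPKM and genes that reached 1 FPKM in either input. Repeated rows were counted as 1 peak, touching peaks were merged to regions, and peak starts were raised by 1. Spans include introns. The named genes are all members, the 3 with the largest absolute difference per role, those beyond 2-fold and those with peaks in a single list; MAML3, EP300, CREBBP, DLL1, HEY2, NCOR1 and ADAM10 were added after their values were seen. Some listed genes are not reported here. The members and the gene lists were chosen with earlier results of these data known. Alternatives were another pseudocount, filter, scaling, peak threshold and overlap. The read recovery and the 2-fold count were tested on simulated data. Python 3.11.15, pandas 2.3.3 and scipy 1.17.1 were used.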

Additional observations from a re-analysis of the deposited data

How the results depend on the processing

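RBPJ was higher by 2-fold or more and JAG2 lower under all 6 alternatives for the inputs, except that JAG2 was at -0.82 with a pseudocount of 5, where the number of lower members was 0. With that pseudocount the pathway list had 1 gene higher and 2 lower in place of 6 and 5, since a larger pseudocount shrinks all differences. Over all 10564 tested genes, 273 were then higher and 154 lower in place of 1087 and 315. The members' median difference was -0.07 with the median gene set to 0 and 0.12 as TPM, where the median over all tested genes was 0.195. Of 42 single-gene values under these alternatives, 30 lay within counting error of the reported value and 1 changed sign, that of NOTCH1 with the median gene set to 0. The counts of member peaks and of peaks with a partner stayed within 1.5 times under the alternatives for peaks. With an overlap of 50% of both regions, 16 NC and 16 MA peaks of the members had a partner (46.3% of all NC regions and 51.2% of all MA regions). With equal numbers of peaks 17 and 18 did (76.3% of all NC regions and 74.7% of all MA regions). The lists give no exon blocks, so only peaks within 1 exon were compared in place of blocks. Of these, 15 of 19 NC and 15 of 18 MA peaks had a partner (59.5% of all such NC regions and 69.5% of all such MA regions). No paired analysis was possible because each group had 1 library. At this depth the intervals of NOTCH1 and NOTCH3 include no difference between the inputs.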
